A study of Homo sapiens with 4 samples.

Results

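The Scratch, Snail, ZEB and TWIST genes encode transcription factors best known from neural development and from the epithelial-to-mesenchymal transition, and 9 of them were followed in SK-N-BE(2) cells, a human neuroblastoma line. The members were chosen by gene symbol (SCRT1, SCRT2, SNAI1, SNAI2, SNAI3, ZEB1, ZEB2, TWIST1 and TWIST2) on a view of earlier results for the same libraries, so their differences between the groups are given as a description without a test. They are 9 of the 64252 genes in the count table. Of these 9, 8 passed the filter on low counts that left 18779 genes for testing, and TWIST2 did not pass it. RNA was sequenced from cells carrying a scrambled short hairpin RNA (sh-Scb, 2 libraries) and from cells carrying a hairpin against SAPCD2 (sh-SAPCD2, 2 libraries). According to the study's methods, the hairpins were delivered by lentivirus and the cells were kept as puromycin-selected stable populations. The labels do not say which hairpin sequence against SAPCD2 was used or whether the libraries came from separate cultures, so the p-values given for other genes measure the spread between these libraries, which may be technical.

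Scratch and Snail proteins are related zinc-finger repressors with a short N-terminal SNAG motif that recruits histone-modifying co-repressors, and Scratch genes are expressed mainly in differentiating neurons. Snail proteins and the larger ZEB proteins, which carry a zinc-finger cluster at each end, bind E-box sequences such as CAGGTG and are known for repressing the E-cadherin gene CDH1. TWIST proteins are basic helix-loop-helix factors that bind DNA as dimers with E proteins. Several of these factors act in the neural crest, from which neuroblastoma arises.

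The libraries held 25347900 to 31850997 counts, and 3 counts, taken as the smallest detectable amount, equaled 0.0955 to 0.119 CPM (a count divided by the TMM-adjusted total of its library, on a fixed scale). This floor covers counting error only. SAPCD2, the targeted gene, was at 83.6 and 82.2 CPM in the sh-Scb libraries and at 35.4 and 52.5 CPM in the sh-SAPCD2 libraries. Its log2 fold change was −0.92 (standard error 0.193, edgeR quasi-likelihood test, Benjamini-Hochberg adjusted p = 0.0206), and the adjusted p was 0.0749 without the filter on low counts. The sh-SAPCD2 libraries differed from each other in a way that moved with base composition. Across tested genes whose canonical transcript exceeds 60% GC, the median difference of replicate 2 minus replicate 1 was 0.46 on the log2 CPM scale, against −0.26 for genes under 40% GC, while both medians lay within 0.017 of 0 between the sh-Scb libraries. All 8 adrenergic neuroblastoma markers were expressed. MYCN was called higher, at 3235 and 3178 CPM against 5904 and 7091 CPM, and the other 7 summed to 2797 and 2713 CPM in the sh-Scb libraries and 2204 and 2948 CPM in the sh-SAPCD2 libraries, so these sums overlapped. Of these, DBH was called lower.

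The 4 families were transcribed at very different levels. On the scale of CPM per kilobase of canonical transcript, TWIST1 led in the sh-Scb libraries with a mean level of 104, followed by ZEB1 at 25.1, SCRT1 at 9.27, SNAI1 at 5.07 and SNAI2 at 2.75. ZEB2 at 2.11 and SCRT2 at 2.04 followed, and the libraries of these neighbors overlapped, so their order was not resolved. SNAI3 at 0.292 and TWIST2 at 0.027 CPM per kilobase came last. Among the tested genes with a known length, the level of TWIST1 stood at the 97.2nd percentile, that of ZEB1 at the 84.5th and that of SCRT2 at the 34.3rd.

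In the sh-SAPCD2 libraries, TWIST1 again had the highest level, at a mean of 85.8 CPM per kilobase. SCRT1 came next at 31.5, but its libraries (24.6 and 38.3 CPM per kilobase) overlapped those of ZEB1 (26.9 and 19.2 CPM per kilobase). SCRT2 moved from a level close to that of ZEB2 to 17.7 CPM per kilobase, above SNAI1 at 5.67, SNAI2 at 3.46 and ZEB2 at 1.51. The lowest levels were those of TWIST2 at 0.154 and SNAI3 at 0.0685 CPM per kilobase, and the libraries of these did not overlap.

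**Figure D1:**
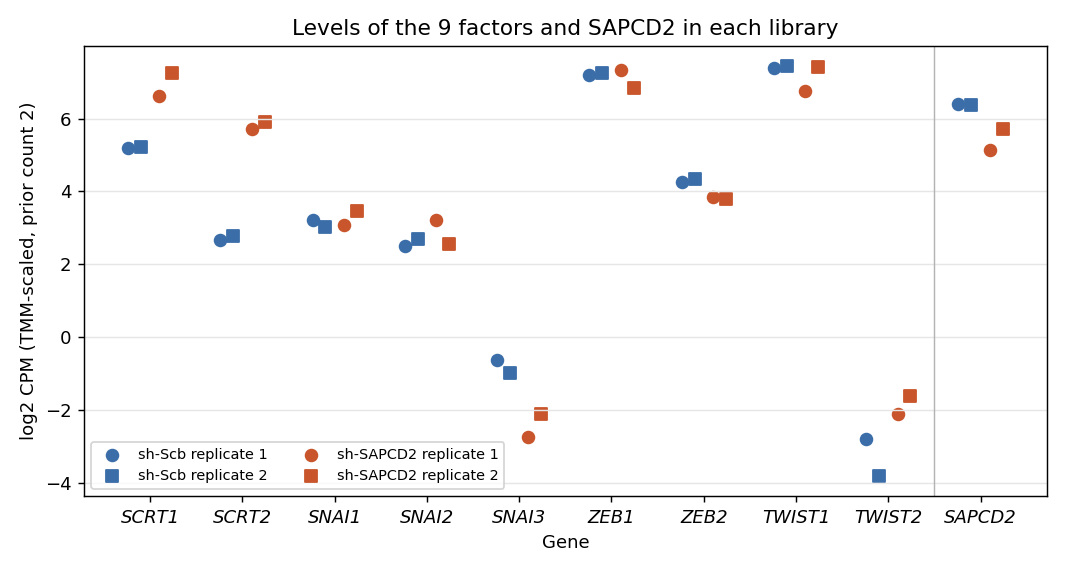
Points show log2 CPM (TMM-scaled, prior count 2) of the 9 factors and of SAPCD2 in each of the 4 libraries, with sh-Scb in blue, sh-SAPCD2 in orange, circles for replicate 1 and squares for replicate 2. Both sh-SAPCD2 points lie above both sh-Scb points for SCRT1 and SCRT2, while the groups overlap for SNAI1, SNAI2, ZEB1 and TWIST1.

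The make-up of the factor transcripts differed between the groups. Scratch transcripts made up 7.53% and 7.47% of the summed CPM per kilobase of the 9 genes in the sh-Scb libraries and 28.3% and 29.7% in the sh-SAPCD2 libraries. The TWIST share was 68.8% and 69.2% in the sh-Scb libraries and 45.8% and 54.7% in the sh-SAPCD2 libraries, whereas the Snail share lay between 4.8% and 6.3% in all 4 libraries. The Scratch shares were high in both sh-SAPCD2 libraries, and the Snail shares of the groups overlapped. Shares depend on each other and on the sum. The sum was 148.7 and 152.8 CPM per kilobase in the sh-Scb libraries and 145.5 and 192.3 in sh-SAPCD2 replicates 1 and 2. The TWIST1 level in sh-SAPCD2 replicate 2, at 105 CPM per kilobase, lay between those of the sh-Scb libraries (102.3 and 105.8), although its share was smaller.

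**Figure D2:**
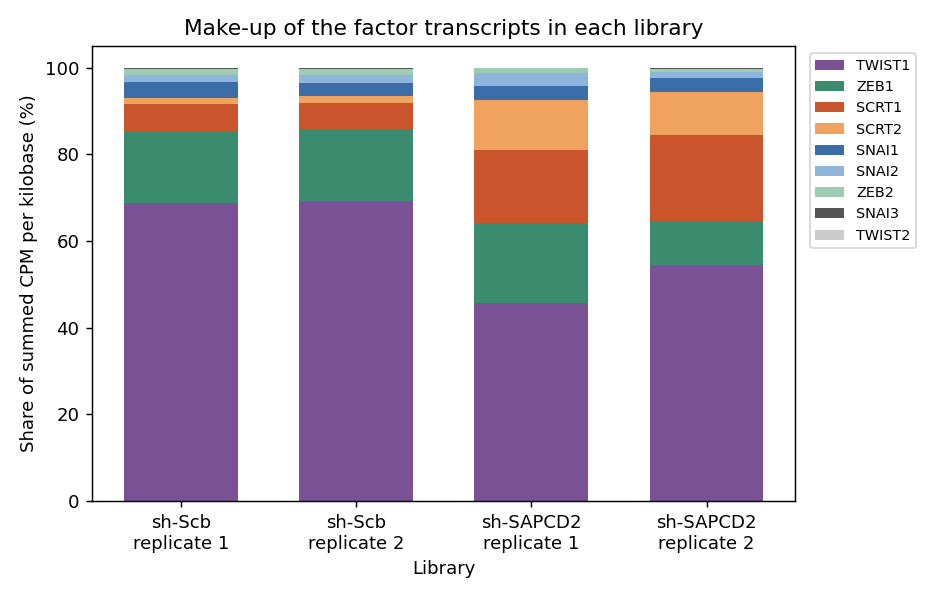
Stacked bars show the share (%) of each gene in the summed CPM per kilobase of the 9 factors, 1 bar per library. The SCRT1 and SCRT2 segments together take 28.3% and 29.7% of the sh-SAPCD2 bars against 7.53% and 7.47% of the sh-Scb bars.

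Both Scratch genes were among the genes called higher in sh-SAPCD2 cells at an adjusted p under 0.05, and with these settings none of the other 6 tested members was called in either direction by edgeR or DESeq2. Over all tested genes, 12.4% were called higher and 12.5% lower. Since this contrast was in view when the members were chosen, nothing is read from their number. Under other settings of edgeR, calls were gained by ZEB2 (lower with library totals, with the filter of 1 CPM and without either sh-SAPCD2 library), by SNAI3 and TWIST1 (lower with the GC and length correction), by ZEB1 (lower without sh-SAPCD2 replicate 1) and by SNAI2 and TWIST1 (higher and lower, respectively, without sh-SAPCD2 replicate 2). The groups did not overlap for 4 of the 8 tested members (SCRT1 and SCRT2 higher, SNAI3 and ZEB2 lower), against 67% of all tested genes. In these bulk libraries, more cells with a transcript and more transcript per cell cannot be told apart.

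**Figure D3:**
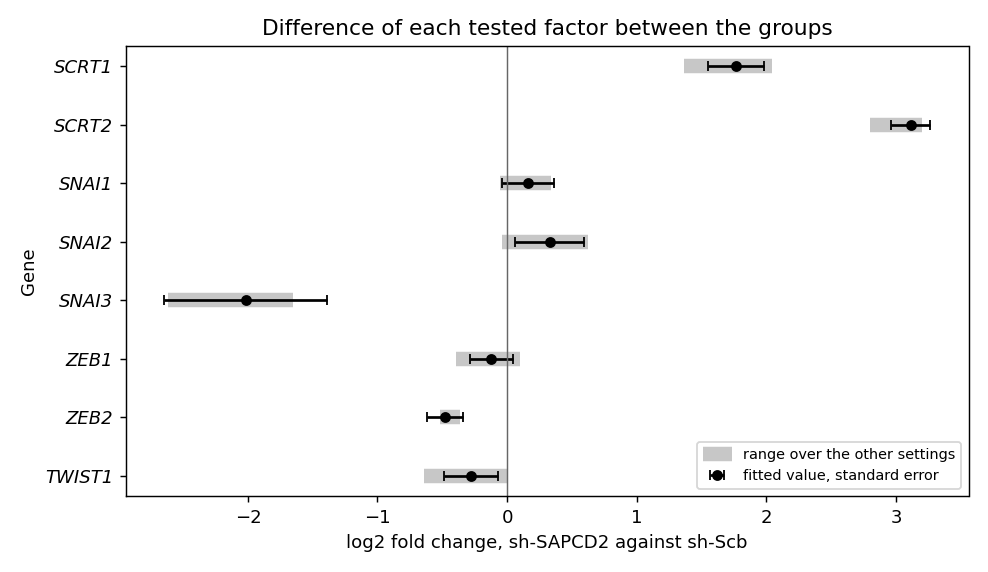
Black points show the log2 fold change of sh-SAPCD2 against sh-Scb for the 8 tested factors with its standard error, and gray bars show the range over 12 other ways of processing the counts (11 for SNAI3). SCRT1 and SCRT2 stay above 1 throughout, ZEB2 and SNAI3 stay below 0, and the bars of SNAI1, SNAI2, ZEB1 and TWIST1 cross 0.

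SCRT1 (ENSG00000261678) encodes the neural repressor Scratch 1 and spans 144330565 to 144336482 of chromosome 8 (hg38, GENCODE, minus strand), with 2 exons. It had 1016 and 1018 counts in the sh-Scb libraries and 2482 and 4788 counts in the sh-SAPCD2 libraries, or 36.8 and 37.0 CPM against 98.1 and 152.5 CPM. Both sh-SAPCD2 libraries were high and the groups did not overlap, but the sh-SAPCD2 libraries were themselves far apart. The mean CPM was 36.9 ± 0.154 (SD, n = 2) in the sh-Scb group and 125.3 ± 38.5 (SD, n = 2) in the sh-SAPCD2 group, a 3.4-fold difference (log2 fold change 1.76, standard error 0.214). The SCRT1 transcript has a GC content of 67.6%, and the log2 fold change was 1.37 once the libraries were corrected for transcript GC content and length. Without sh-SAPCD2 replicate 2 it was 1.41. An exon of SLC52A2, a riboflavin transporter gene on the opposite strand, shares 155 bp or 3.89% of the exonic SCRT1 sequence. SLC52A2 measured 26.8 and 24.9 CPM in the sh-Scb libraries and 40.5 and 76.0 CPM in the sh-SAPCD2 libraries (log2 fold change 1.18, edgeR adjusted p = 0.0317), and reads over the shared bases cannot be assigned because the strandedness of the counting is not given in the sources used here. The nearest tested protein-coding genes that do not overlap SCRT1, DGAT1 and FBXL6, had log2 fold changes of −0.11 and −0.004 and were not called.

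SCRT2 (ENSG00000215397) encodes Scratch 2, the second neural Scratch repressor, and had the largest difference of the tested members. It rests on 173 and 187 counts in the sh-Scb libraries and 1338 and 1892 counts in the sh-SAPCD2 libraries. In CPM these were 6.26 and 6.80 in the sh-Scb libraries and 52.9 and 60.2 in the sh-SAPCD2 libraries. The libraries of each group lay close together and the groups were far apart. The mean was 6.53 ± 0.377 CPM (SD, n = 2) against 56.5 ± 5.22 CPM (SD, n = 2), an 8.66-fold difference (log2 fold change 3.11, standard error 0.15), which stood at rank 39 from the top among 18779 tested genes. Under the other ways of processing, its log2 fold change ran from 2.80 with the GC and length correction and replicate block to 3.20 without sh-SAPCD2 replicate 1. The excess of SCRT1 over SCRT2 in CPM per kilobase was 4.72 and 4.38 times in the sh-Scb libraries and 1.49 and 2.03 times in the sh-SAPCD2 libraries, so the levels of the Scratch pair lay closer together in the sh-SAPCD2 libraries.

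SCRT2 spans 661596 to 675802 of chromosome 20 (hg38, GENCODE, minus strand). The 250 bases before its RefSeq start (GRCh38.p14, chr20:675803-676052, minus strand) are shown because SCRT2 carried the largest difference, and the letters searched for were CAGGTG and its reverse complement CACCTG, the core E-box that Snail, Scratch and ZEB proteins are known to bind. The capitals mark the match, which begins 53 bases before the start. These letters occur in 20.6% of the 35116 promoters in the table, and the match is a description and not a shown binding site.
SCRT2 promoter: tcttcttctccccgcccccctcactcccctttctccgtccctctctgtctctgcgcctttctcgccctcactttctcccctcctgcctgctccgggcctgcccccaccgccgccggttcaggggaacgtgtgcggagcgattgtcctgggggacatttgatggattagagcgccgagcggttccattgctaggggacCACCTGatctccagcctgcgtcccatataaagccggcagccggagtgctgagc

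The genes around SCRT2 were compared by position. ENSG00000270299, a protein-coding annotation on the same strand that spans most of SCRT2 and reaches into SRXN1, shares 332 bp or 10.4% of the exonic SCRT2 sequence, and reads there may be split between them. It had 11 and 12 counts in the sh-Scb libraries and 85 and 117 counts in the sh-SAPCD2 libraries (log2 fold change 3.07, edgeR adjusted p = 0.00322). SRXN1, which encodes the antioxidant enzyme sulfiredoxin, measured 14.3 and 13.7 CPM against 25.9 and 28.1 CPM (log2 fold change 0.95, edgeR adjusted p = 0.00707). FAM110A, the nearest tested protein-coding gene on the other side at a distance of 157913 bp, had a log2 fold change of 0.86 (edgeR adjusted p = 0.018). The nearest tested protein-coding genes on both sides of SCRT2 were thus higher in sh-SAPCD2 cells, with smaller differences than SCRT2 itself.

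The genes with a profile most like that of SCRT2 were sought among 14689 genes with a mean of at least 1 CPM, by the root mean square distance between centered log2 CPM values over the 4 libraries. ICAM5, a neuronal adhesion molecule, was closest at 0.0937, with 0.615 and 0.763 CPM in the sh-Scb libraries and 5.65 and 7.45 CPM in the sh-SAPCD2 libraries. The overlapping ENSG00000270299 came next at 0.108. HSPB8, which encodes a small heat-shock protein, followed at 0.139 with 0.398 and 0.473 CPM against 3.52 and 3.63 CPM. ICAM5, ENSG00000270299 and HSPB8 were each under 1 CPM in both sh-Scb libraries. They reached the mean of 1 CPM only through the sh-SAPCD2 libraries, where they were high. This likeness rests on 4 libraries and says nothing of shared function.

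The Snail genes did not share the Scratch pattern. SNAI1, the classical repressor of CDH1, lies on chromosome 20 from 49982980 to 49988886 and measured 9.20 and 8.10 CPM in the sh-Scb libraries and 8.33 and 11.0 CPM in the sh-SAPCD2 libraries. The groups overlapped. The log2 fold change was 0.16 (standard error 0.203), and it was −0.05 without sh-SAPCD2 replicate 2. SNAI2 encodes Slug, a neural crest regulator, on chromosome 8 from 48917598 to 48921740. It measured 5.61 and 6.40 CPM in the sh-Scb libraries and 9.24 and 5.86 CPM in the sh-SAPCD2 libraries. Only sh-SAPCD2 replicate 1 was high, and the log2 fold change of 0.33 (standard error 0.263) became −0.04 without that library.

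SNAI3, the least expressed Snail gene, lies on chromosome 16 from 88677688 to 88686507. It had 16 and 12 counts in the sh-Scb libraries and 2 and 5 counts in the sh-SAPCD2 libraries. Both sh-SAPCD2 libraries were lower, and 1 of them was below the floor of 3 counts. The ratio of the summed counts was 0.243 (95% interval from an exact binomial method 0.0896 to 0.569, counting error only). Its antisense neighbor SNAI3-AS1 shares 177 bp or 10.2% of its exonic sequence and measured 3.005 and 2.80 CPM against 1.54 and 2.36 CPM, with an edgeR adjusted p of 0.214. At this depth, the SNAI3 values rest on few counts and on reads that may be shared.

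TWIST1 had the highest level per kilobase of the 9 genes and is a known partner of MYCN in neuroblastoma. It lies on chromosome 7, where the annotation gives it 19020991 to 19117636. Its counts were 4606 and 4745 in the sh-Scb libraries and 2747 and 5373 in the sh-SAPCD2 libraries, which gave 166.7 and 172.4 CPM against 108.5 and 171.1 CPM. Only sh-SAPCD2 replicate 1 was low, and replicate 2 lay between the sh-Scb libraries. The log2 fold change was −0.28 (standard error 0.209), 0.01 without sh-SAPCD2 replicate 1 and −0.64 without sh-SAPCD2 replicate 2, so its direction rested on 1 library. HDAC9, a histone deacetylase gene 18575 bp away and the nearest tested coding gene at lower coordinates, measured 251.7 and 256.0 CPM against 133.2 and 128.1 CPM (log2 fold change −0.96, edgeR adjusted p = 0.00322).

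TWIST2, the paralog of TWIST1, lies on chromosome 2 from 238848032 to 238910534 and was close to the limit of detection. It had 2 and 0 counts in the sh-Scb libraries and 4 and 8 counts in the sh-SAPCD2 libraries. Both sh-SAPCD2 libraries were higher and only these exceeded 3 counts. The ratio of the summed counts was 5.83, with a 95% interval from an exact binomial method of 1.3 to 53.7. This interval covers counting error only and not the spread between libraries, so it is not a test of TWIST2.

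**Figure D4:**
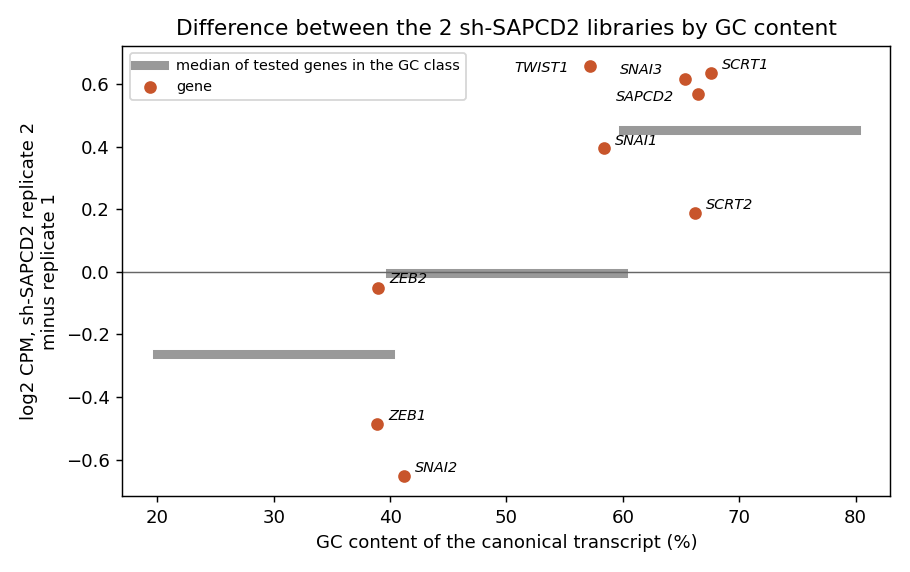
The difference in log2 CPM between the sh-SAPCD2 libraries (replicate 2 minus replicate 1) is plotted against the GC content (%) of the canonical transcript for SAPCD2 and the 8 tested factors, and gray bars give the median of all tested genes under 40%, from 40 to 60% and over 60% GC. The factors with GC contents over 57% lie between 0.19 and 0.66, and ZEB1, ZEB2 and SNAI2 lie between −0.65 and −0.05.

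The direction of the difference between the sh-SAPCD2 libraries followed GC content in the members too. On the log2 CPM scale, replicate 2 minus replicate 1 was 0.64 for SCRT1, 0.66 for TWIST1, 0.40 for SNAI1 and 0.19 for SCRT2. It was −0.49 for ZEB1, −0.65 for SNAI2 and −0.05 for ZEB2, whose transcripts have GC contents of 38.9%, 41.2% and 39.0%. TWIST1 (57.2% GC), SNAI1 (58.4% GC) and SNAI2 lie in the class from 40 to 60% GC. The median difference of the 12056 tested genes of that class was −0.003, so the class median does not match the differences of these members. SCRT2 was the GC-rich member with the least difference between these libraries. The median log2 fold change between the groups was 0.30 for genes over 60% GC and −0.10 for genes under 40% GC, and the part of this shift in the uncorrected Scratch values was measured only through the GC and length correction, which left log2 fold changes of 1.37 for SCRT1 and 2.80 for SCRT2.

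ZEB1, a repressor of epithelial genes, lies on the plus strand of chromosome 10 from 31318495 to 31529814. It had 4066 and 4164 counts in the sh-Scb libraries and 4051 and 3588 counts in the sh-SAPCD2 libraries, or 147.2 and 151.3 CPM against 160.0 and 114.2 CPM. The sh-SAPCD2 libraries lay on either side of the sh-Scb libraries. The log2 fold change was −0.12 (standard error 0.167), 0.10 without sh-SAPCD2 replicate 2 and −0.39 without sh-SAPCD2 replicate 1. The antisense gene ZEB1-AS1, which shares 396 bp or 4.58% of the exonic ZEB1 sequence, measured 15.8 and 16.7 CPM against 9.28 and 11.9 CPM (log2 fold change −0.61, edgeR adjusted p = 0.0523).

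ZEB2, the paralog of ZEB1 and a factor of neural crest and neuronal development, spans 144364364 to 144521057 of chromosome 2 (minus strand). It had 525 and 552 counts in the sh-Scb libraries and 361 and 432 counts in the sh-SAPCD2 libraries. In CPM these were 19.0 and 20.1 against 14.3 and 13.8, so both sh-SAPCD2 libraries were lower. The log2 fold change was −0.48 (standard error 0.139) and ran from −0.52 to −0.36 over the other settings. GTDC1, the nearest tested coding gene on one side at a distance of 31796 bp, measured 14.8 and 15.01 CPM against 4.50 and 4.58 CPM (log2 fold change −1.71, edgeR adjusted p = 0.00316). ACVR2A, the nearest on the other side, lies much farther away, at 3323460 bp, and was not called.

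Of the other members, the RefSeq promoter table held 7 starts of ZEB1 and 1 each of ZEB2 and TWIST2. The E-box letters were found before 2 of the ZEB1 starts and were not in the ZEB2 and TWIST2 windows. The matches of ZEB1 are shown on the plus strand with the E-box in capitals, since ZEB1 itself binds such letters. They lie at chr10:31318350-31318375, chr10:31318966-31318989 and chr10:31319121-31319146 of GRCh38.p14, at 57 bases before start 1 and at 242 and 85 bases before start 3 of the table.
ZEB1 start 1: gaggtgacagCAGGTGagggccgggt
ZEB1 start 3, distal: ccccaccaCACCTGaggaaaactt
ZEB1 start 3, proximal: tgtcgtaaacCAGGTGcggtggggag

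The miR-200 microRNAs are the textbook repressors of ZEB1 and ZEB2 in epithelial cells and pair with their transcripts through the seed, bases 2 to 8. The mature sequences from RefSeq are shown with the seed in capitals, because the letters that pair with it were dense in the ZEB transcripts. A first group shares the seed AAUACUG.
hsa-miR-200b-3p: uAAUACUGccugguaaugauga
hsa-miR-200c-3p: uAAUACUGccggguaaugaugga
hsa-miR-429: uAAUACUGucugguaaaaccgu
A second group shares the seed AACACUG.
hsa-miR-141-3p: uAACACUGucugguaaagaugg
hsa-miR-200a-3p: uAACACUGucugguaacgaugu

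In the annotated 3′ untranslated region of ZEB1 (2540 bp, hg38, GENCODE), the letters CAGTATT that pair with the first seed occurred 6 times, or 2.36 per kilobase against 0.119 per kilobase over 19205 genes. Among the 4505 regions at least as long, cut to the same length, 0.0222% held as many, which is ZEB1 alone. ZEB2 held 5 matches in 5370 bp, or 0.931 per kilobase, and 0.0897% of the regions cut to that length held as many. The letters CAGTGTT of the second seed occurred 3 times in ZEB1 and 4 times in ZEB2. The first CAGTATT match of each gene, in capitals and written as DNA in the direction of the transcript, begins at base 369 of the ZEB1 region and base 392 of the ZEB2 region.
ZEB1 site: tttatcttatCAGTATTatcactct
ZEB2 site: taccatacatCAGTATTtttattat

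MIR200CHG, a host transcript of the miR-200c cluster, MIR205HG and MIR34AHG had 0 counts in all 4 libraries. These libraries do not measure mature microRNAs, so the levels of the miR-200 family in these cells were not measured. ESRP1 and OVOL2, epithelial factors that oppose ZEB1, likewise had 0 counts, and ESRP2 measured 0.253 and 0.436 CPM against 0.553 and 0.478 CPM. GRHL1, an epithelial factor of the same list, measured 2.14 and 2.29 CPM against 2.53 and 1.75 CPM, and the groups overlapped.

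Genes that work with or under the members were taken from 9 lists of 146 distinct genes, compiled from general knowledge with earlier results of these libraries known. Of these, 113 were tested, 21 were higher and 18 were lower in sh-SAPCD2 cells (edgeR quasi-likelihood test, adjusted p under 0.05), which is 18.6% and 15.9% beside 12.4% and 12.5% of all tested genes. The median log2 fold change was 0.04 beside 0.02 for all tested genes. The counts depended on single libraries. Without sh-Scb replicate 1 or 2, 9 and 4 genes were higher and 10 were lower each time, while without sh-SAPCD2 replicate 1 or 2, 31 and 28 were higher and 30 and 34 were lower.

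**Figure D5:**
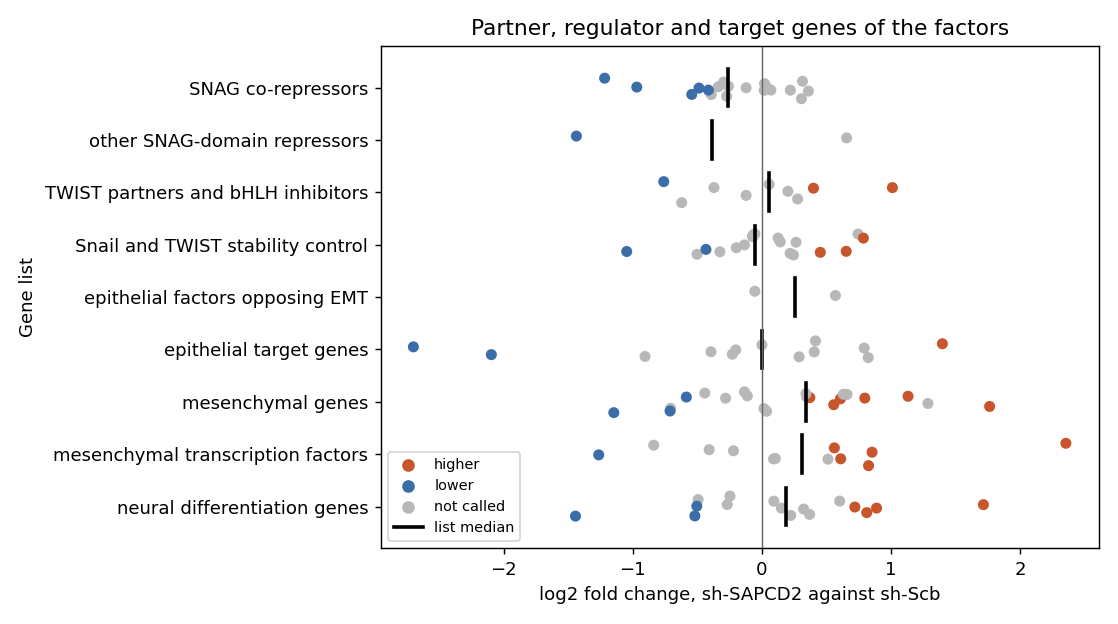
Each point is the log2 fold change of a tested gene of the list named on the left, in orange where called higher, in blue where called lower and in gray where not called, with a black line at the list median. The co-repressor list has 5 genes called lower and a median of −0.26, and the mesenchymal lists have most of their called genes to the right of 0.

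Of 19 tested genes of the co-repressor list, 5 were lower, 0 were higher and 14 were not called. That is 26.3% lower and 0% higher, beside 12.5% and 12.4% of all tested genes, and these shares were not tested. At an unadjusted p under 0.05, 1 was higher, DESeq2 gave 0 higher, and the median log2 fold change was −0.26. KDM1A, which encodes the demethylase LSD1, was not called (edgeR adjusted p = 0.884). It measured 424.4 and 420.8 CPM in the sh-Scb libraries and 427.5 and 430.2 CPM in the sh-SAPCD2 libraries. SUV39H1, a histone H3 lysine 9 methyltransferase, measured 18.0 and 17.1 CPM in the sh-Scb libraries and 7.35 and 7.74 CPM in the sh-SAPCD2 libraries (log2 fold change −1.22, edgeR adjusted p = 0.00519). RCOR1, the CoREST scaffold of the LSD1 demethylase complex, fell by 0.97 on the log2 scale (edgeR adjusted p = 0.018). EZH2, the catalytic subunit of Polycomb complex PRC2, fell by 0.54 (edgeR adjusted p = 0.0143), and the deacetylase HDAC3 fell by 0.49 (edgeR adjusted p = 0.0287). The calls of EZH2 and HDAC3 were lost without either sh-Scb library, with adjusted p from 0.207 to 0.414, and with 1 library left out 2 to 11 genes of the list were lower and 0 to 3 were higher.

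Among other repressors with a SNAG motif, INSM2, a neuroendocrine zinc-finger factor, was lower in the sh-SAPCD2 libraries. It measured 434.7 and 443.0 CPM in the sh-Scb libraries and 145.5 and 178.7 CPM in the sh-SAPCD2 libraries (log2 fold change −1.44, edgeR adjusted p = 0.00263). Its paralog INSM1 measured 7.06 and 7.96 CPM against 9.99 and 13.7 CPM and was not called (edgeR adjusted p = 0.0683), but was called without sh-SAPCD2 replicate 1 (log2 fold change 0.86, adjusted p = 0.0104) and with the replicate block (adjusted p = 0.027). GFI1, GFI1B and OVOL1 did not pass the filter.

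The dimerization partners of TWIST and their inhibitors all passed the filter on low counts, and of 9 tested genes 2 were higher and 1 was lower. These are 22.2% and 11.1%, beside 12.4% and 12.5% of all tested genes. TCF4, an E protein that dimerizes with TWIST factors, measured 584.3 and 583.7 CPM against 383.9 and 305.8 CPM (log2 fold change −0.76, edgeR adjusted p = 0.0112). ID3, an inhibitor that sequesters E proteins, rose from 31.4 and 29.5 CPM to 53.0 and 69.7 CPM (log2 fold change 1.012, edgeR adjusted p = 0.00963). HAND1, a bHLH factor of the sympathetic lineage, had a log2 fold change of 0.40 (edgeR adjusted p = 0.0421), a call lost without sh-Scb replicate 1 (adjusted p = 0.353), without sh-Scb replicate 2 (adjusted p = 0.513) and with the replicate block (adjusted p = 0.0669). TCF12, another E protein, had a log2 fold change of −0.37 and was not called (edgeR adjusted p = 0.0916), but was called without sh-SAPCD2 replicate 1 (−0.56, adjusted p = 0.00059) and without sh-SAPCD2 replicate 2 (−0.21, adjusted p = 0.0118).

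Of 19 tested genes that set the stability of Snail and TWIST proteins, 3 were higher and 2 were lower. These are 15.8% and 10.5%, beside 12.4% and 12.5% of all tested genes. GSK3B, the kinase that marks Snail for degradation, measured 136.7 and 136.1 CPM in the sh-Scb libraries and 74.7 and 57.5 CPM in the sh-SAPCD2 libraries (log2 fold change −1.05, edgeR adjusted p = 0.00646). The ubiquitin ligase subunits FBXW7 and FBXW11 rose by log2 fold changes of 0.79 (edgeR adjusted p = 0.00997) and 0.45 (edgeR adjusted p = 0.0255). CTDSPL, a small C-terminal domain phosphatase, rose by 0.65 (edgeR adjusted p = 0.00829). The last 3 calls were lost without either sh-Scb library, with adjusted p from 0.0626 to 0.361. Protein levels were not measured in these libraries.

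CDH1, the E-cadherin gene repressed by Snail and ZEB factors, had 0 counts in all 4 libraries, which allows at most 0.0955 to 0.119 CPM. Of the 23 epithelial target genes, 13 were tested, 1 was higher and 2 were lower, with a median log2 fold change of 0.001. The shares were 7.69% higher and 15.4% lower, beside 12.4% and 12.5% of all tested genes. MUC1, an epithelial mucin, measured 1.52 and 1.31 CPM in the sh-Scb libraries and 0.276 and 0.159 CPM in the sh-SAPCD2 libraries (log2 fold change −2.70, edgeR adjusted p = 0.0115). LLGL2, a cell polarity gene, measured 5.18 and 4.29 CPM against 0.711 and 1.46 CPM (log2 fold change −2.10, edgeR adjusted p = 0.0125). KRT19, an epithelial keratin, measured 1.70 and 0.836 CPM against 3.40 and 3.31 CPM (log2 fold change 1.40, edgeR adjusted p = 0.0406), a call lost without sh-Scb replicate 2 (0.98, adjusted p = 0.169) and without sh-SAPCD2 replicate 1 (adjusted p = 0.0623) or replicate 2 (adjusted p = 0.0629). JUP, which encodes plakoglobin, had a log2 fold change of −0.39 and was not called (edgeR adjusted p = 0.093), but was called without sh-SAPCD2 replicate 1 (−0.24, adjusted p = 0.026) and without replicate 2 (−0.57, adjusted p = 0.00294). Of the epithelial factors that oppose these proteins, 2 of 11 were tested (ESRP2 and GRHL1), and 0 were called by edgeR, by DESeq2 or at an unadjusted p under 0.05.

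The mesenchymal genes moved in both directions, with 6 of 21 tested genes higher, 3 lower and a median log2 fold change of 0.34. The shares were 28.6% higher and 14.3% lower, beside 12.4% and 12.5% of all tested genes, and were not tested. MMP14, a membrane-bound matrix metalloproteinase, measured 104.5 and 102.3 CPM in the sh-Scb libraries and 316.0 and 386.9 CPM in the sh-SAPCD2 libraries (log2 fold change 1.76, edgeR adjusted p = 0.00201). VIM, the intermediate filament gene used as the standard mesenchymal marker, measured 1197 and 1179 CPM against 518.1 and 554.6 CPM (log2 fold change −1.15, edgeR adjusted p = 0.0023). SPARC and MMP2, genes of matrix remodeling, rose by log2 fold changes of 0.80 (edgeR adjusted p = 0.00468) and 0.61 (edgeR adjusted p = 0.00834). CDH2, the N-cadherin gene, rose by 0.56 (edgeR adjusted p = 0.0188), and FN1, the fibronectin gene, fell by 0.58 on the log2 scale (edgeR adjusted p = 0.0233). The calls of MMP2, CDH2 and FN1 were lost without either sh-Scb library, with adjusted p from 0.13 to 0.235. The fibroblast markers COL1A1, COL3A1, PDGFRB and THY1 had a summed level of 375.6 to 377.3 CPM in the sh-Scb libraries and 458.4 to 499.2 CPM in the sh-SAPCD2 libraries, with THY1 alone called, and their part in these values was not tested.

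The list of mesenchymal transcription factors also holds the receptor NOTCH2 and the Notch coactivator MAML2. Of its 12 tested genes, 5 were higher, MAML2 among them, and 1 was lower, which was NOTCH2. The median log2 fold change of the list was 0.31. These are 41.7% and 8.33%, beside 12.4% and 12.5% of all tested genes, in a short list that was not tested as a set. FOSL1, an AP-1 subunit, measured 0.579 and 1.05 CPM in the sh-Scb libraries and 4.23 and 4.17 CPM in the sh-SAPCD2 libraries (log2 fold change 2.36, edgeR adjusted p = 0.00717). FOSL2, another AP-1 subunit, and BACH1, a heme-regulated repressor, rose by log2 fold changes of 0.61 (edgeR adjusted p = 0.0138) and 0.85 (edgeR adjusted p = 0.0114). NOTCH2, a Notch receptor kept in this list for its place in the mesenchymal state of neuroblastoma, measured 102.3 and 97.0 CPM against 44.2 and 38.8 CPM (log2 fold change −1.26, edgeR adjusted p = 0.00313). Without a sh-Scb library, the call of FOSL2 was lost (adjusted p = 0.19 without replicate 1 and 0.154 without replicate 2), and that of BACH1 was lost without sh-Scb replicate 2 (adjusted p = 0.0557).

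Scratch genes are expressed during neuronal differentiation, and of 16 tested genes of that process 4 were higher and 3 were lower. These are 25% and 18.8%, beside 12.4% and 12.5% of all tested genes. The median log2 fold change of the list was 0.19. MYT1 and MYT1L, zinc-finger factors of developing and mature neurons, rose by log2 fold changes of 0.89 (edgeR adjusted p = 0.0128) and 0.72 (edgeR adjusted p = 0.016). STMN2, a microtubule regulator of growing axons, measured 1823 and 1825 CPM against 1359 and 1214 CPM (log2 fold change −0.50, edgeR adjusted p = 0.0155). The calls of STMN2 and MYT1L were lost without either sh-Scb library (adjusted p from 0.077 to 0.182), and that of MYT1 without sh-Scb replicate 2 (adjusted p = 0.0723). The direction was thus mixed within neuronal genes while both Scratch genes were higher.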

How the data were processed

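RNA-seq was performed on 4 libraries of SK-N-BE(2) cells, 2 per group, grouped by the hairpin named in the labels. Per the labels and the methods, the authors used HISAT2 2.2.0 to align paired-end reads (hg38) and StringTie for abundances, and deposited whole-number counts per Ensembl gene. The step from coverage to counts, its strandedness and the Ensembl release are not given in the sources used here. Counts (25347900 to 31850997 per library) were scaled by TMM and tested in R 4.3.3 with the edgeR 4.0.16 quasi-likelihood test and Benjamini-Hochberg adjustment, on the 18779 genes kept by filterByExpr (count at least 10, total at least 15). The variation between libraries of a group, which edgeR terms the biological coefficient of variation (BCV), came to 15.4%. It may be technical here, since separate cultures are not stated. Positions, lengths and GC content came from GENCODE annotation of hg38, matched for 17467 tested genes, and promoters and microRNAs from RefSeq tables (GRCh38.p14). Motifs were searched on both strands of each promoter, from 250 bases before to 50 after the start. The script was tested on simulated data. The members and gene lists were chosen with earlier results of these data known. The text names the 9 members, SAPCD2, at most the 4 genes of each list with the smallest p, CDH1, VIM, CDH2 and FN1, the 3 genes most like SCRT2 and, after their values were seen, genes that overlap or neighbor members, genes with 0 counts, genes outside the filter and single cell type markers. Alternatives comprised library totals or DESeq2 size factors in place of TMM, DESeq2 1.42.0, other filters, the replicate block, loess offsets for transcript GC and length (span 0.3), the latter with the block, an absolute log2 fold change over 1, and each library left out in turn. KDM1A was also named after its values were seen. The planned protein comparison was not made. Some genes that the naming rule covers are not reported here. Intervals cover counting error only.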

Additional observations from a re-analysis of the deposited data

How the results depend on the processing

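Over the 12 alternatives, the log2 fold change ran from 1.37 to 2.04 for SCRT1 and from 2.80 to 3.20 for SCRT2, members called higher numbered 2 or 3 and members called lower 0 to 2, from which nothing is read because the members were chosen on this contrast. The main counts were 2326 higher and 2339 lower genes, and 21 higher and 18 lower genes of the 9 lists. Without the filter on low counts, when 34935 genes were tested, there were 1081 higher and 1180 lower genes, and 10 and 12 of the lists. With an absolute log2 fold change over 1 there were 880 and 968, and 6 and 8 of the lists. The GC and length correction gave 4085 higher and 3406 lower genes, and 31 and 27 of the lists. With each library left out, the counts ran from 1176 to 4396 higher and 1146 to 4014 lower genes, and from 4 to 31 and 10 to 34 of the lists. Where a group is left with 1 library, its spread is assumed to be that of the other group. With the replicate block there were 2860 higher and 2701 lower genes, and 23 and 19 of the lists, and with the replicate block and GC correction together 4000 higher and 3273 lower genes, and 31 and 28 of the lists. Same-numbered libraries had a correlation of deviations of −0.0188 over genes, and the labels do not say that a number marks a batch, so the numbers were not taken as pairs. For DESeq2, its size factors, library totals and the filter of 1 CPM, each of these counts stayed within 1.5 times the main count. The calls of RCOR1, HDAC3, HAND1, FBXW11, KRT19, MYT1L, CDH2, FN1 and SAPCD2 were lost without the filter, with adjusted p from 0.051 to 0.111. Apart from the number of genes or libraries tested, the cause of these shifts was not tested. TWIST2 and SNAI3 are limited by depth.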
